A study of Mus musculus with 14 samples.

Results

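The 8 libraries described here compare a Cre-EGFP plasmid with an EGFP plasmid delivered to cortical progenitors, and they are 8 of the 14 libraries of the series. All 8 came from Lhx2lox/lox mice, in which both copies of Lhx2 carry recombination sites. Plasmids were electroporated in utero into embryonic progenitors of the cerebral cortex, and labelled neurons of layer II/III were taken by microdissection at postnatal day 5. Controls received EGFP alone (n = 4). Libraries labelled mutant received Cre-EGFP (n = 4). Electroporation reaches only part of the cells of a region, the labels name microdissection and no cell sort, and nothing states how many animals went into a library. P-values therefore cover only the spread among these 8 libraries, and some of that spread may be technical.

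Lhx2 is a LIM-homeodomain transcription factor that acts in cortical progenitors and is also present in upper-layer neurons. Progenitors of late cortical neurogenesis give rise mainly to callosal neurons of layers II and III, which pass from proneural factors such as Neurog2, through NeuroD factors, to a phase of dendrite growth and synapse formation. In the first postnatal days these neurons are still immature, and genes of transmitter release, postsynaptic signalling and ion channels are being switched on. The series asks how loss of Lhx2 at the progenitor stage bears on the dendrites of these neurons.

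Library totals lay between 22677019 and 29497595 counts, and every control was deeper than every library labelled mutant. Lhx2 (chromosome 2) had 131, 120.4, 139 and 120 CPM (counts scaled to a common library total) in controls and 127, 114, 140 and 137 CPM in libraries labelled mutant, and the groups overlapped. Its log2 fold change was 0.02 ± 0.07 (95% interval -0.13 to 0.18, exact permutation test over the 8 libraries, two-sided p = 0.743). Counts cover the whole gene, so they do not resolve the floxed part, and groups are named by their labels. Y-linked genes had 0 or 1 count in each control and in mutant 1, but 100.2 to 173 CPM in mutants 2, 3 and 4, so this difference runs alongside the labels. Xist, an RNA of the X chromosome, had 783 to 1266 CPM in controls and 1680 CPM in mutant 1. It had 7.98 and 0.131 CPM in mutants 2 and 4, and 557 CPM in mutant 3, which also had Y-linked counts. The labels do not state the sex of the animals. Markers of the labelled cell type were present, with 34 of 36 listed upper-layer markers measured. Markers of astrocytes, interneurons, microglia, vessels and meninges were also present, and in such mixed tissue fewer cells of a type and less RNA per cell cannot be told apart.

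The quasi-likelihood test of edgeR, with p adjusted by Benjamini and Hochberg's method over 15295 genes, called 3577 of them (23.4%) at the 0.05 threshold. In libraries labelled mutant 12% of the tested genes were called higher and 11.4% lower. A called change of more than 2-fold was found for 299 genes, 182 higher (1.19%) and 117 lower (0.765%). Each of 1988 genes stayed called when any 1 of the 8 libraries was left out. Without mutant 3 the number called was 2383 (8.05% of genes higher and 7.36% lower). With Y-linked CPM as a covariate it was 948 (3.39% higher and 2.81% lower, 6.2% in all), and with the controls set against mutant 1 alone it was 393 (1.16% higher and 1.29% lower, 2.45% in all). In the covariate fit mutant 1 shares the near absence of Y-linked counts with the controls, so the label effect rests mainly on mutant 1. For Sox4 the log2 fold change was 0.11 with the covariate and 0.09 with mutant 1 alone, and for Tbr1 -0.53 and -0.53. A call that ended with the covariate may thus reflect Y-linked content or fewer effective libraries, and which was not tested. Where only 1 or 2 members of a gene list were called, leaving out 1 library could end those calls. List counts are to be read beside the shares of all genes in the same fit. With the covariate these shares were 3.39% higher and 2.81% lower. Adjusted p-values are from edgeR, and a value in brackets with ± is a log2 fold change of mutant over control with its SE.

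Neurog2, a proneural basic helix-loop-helix factor that drives neurogenesis in cortical progenitors, showed the largest change of all called genes that met the limits for naming. Controls 1 to 4 held 5, 10, 8 and 5 counts, and libraries labelled mutant 1 to 4 held 4036, 2768, 5064 and 1466. No control came near any library labelled mutant, and mutant 4 was the lowest of its group. The log2 fold change was 9.05 ± 0.65 (adjusted p = 0.000327). Up to 250 bases upstream of the RefSeq start of Neurog2, outside the annotated gene, are shown with those of 3 genes of the same differentiation sequence, because these are the windows in which E-boxes, the sites of proneural factors, were looked for. Capitals mark matches on either strand to CAGATG, to the E-boxes CATATG and CAGCTG, which read the same on both strands, or to the homeodomain core TAATTA (RefSeq, GRCm38.p6).
Neurog2 (chr3:127632886-127633134, plus strand): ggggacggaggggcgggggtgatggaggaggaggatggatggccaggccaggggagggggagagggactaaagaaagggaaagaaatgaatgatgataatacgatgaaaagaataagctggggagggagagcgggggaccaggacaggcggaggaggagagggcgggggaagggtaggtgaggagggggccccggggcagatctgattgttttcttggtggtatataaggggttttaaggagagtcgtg
Neurod1 (chr2:79456752-79456886, minus strand): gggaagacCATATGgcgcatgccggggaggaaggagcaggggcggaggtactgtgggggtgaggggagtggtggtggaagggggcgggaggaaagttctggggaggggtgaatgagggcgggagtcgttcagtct
Neurod2 (chr11:98329649-98329895, minus strand): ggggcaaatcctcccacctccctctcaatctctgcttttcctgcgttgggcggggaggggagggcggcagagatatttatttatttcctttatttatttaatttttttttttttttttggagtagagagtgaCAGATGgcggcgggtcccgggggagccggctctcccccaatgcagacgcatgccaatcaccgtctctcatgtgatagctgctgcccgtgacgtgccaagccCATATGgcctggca
Sox11 (chr12:27342719-27342968, minus strand): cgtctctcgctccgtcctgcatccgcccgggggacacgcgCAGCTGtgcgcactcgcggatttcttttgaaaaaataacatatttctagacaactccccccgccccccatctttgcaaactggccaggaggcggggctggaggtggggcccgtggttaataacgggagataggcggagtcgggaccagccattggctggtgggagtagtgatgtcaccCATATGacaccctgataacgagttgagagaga

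Each motif was also counted in the full 250 bases upstream of the RefSeq start of tested genes, without trimming at the annotated gene. CAGATG was found in 10.3% of the 12007 promoters of tested genes, in 10.1% of those of genes called higher and in 10.2% of those of genes called lower. For CATATG these shares were 1.48%, 0.89% and 2.39%. For CAGCTG they were 12.1%, 11.4% and 11.9%, and for TAATTA 2.27%, 2.33% and 2.09%. Among genes called and changed by more than 2-fold, 134 promoters were of higher and 80 of lower genes. There CAGATG was in 14.9% and 13.8%, CATATG in 1.49% and 5%, CAGCTG in 11.2% and 13.8%, and TAATTA in 3.73% and 5%. These shares were not tested, and those of CATATG and TAATTA rest on 2 to 5 promoters.

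Genes of the differentiation sequence that follows Neurog2 were called in both directions. Of 30 measured proneural and neurogenic genes 6 rose and 3 fell (20% and 10%), against 12% and 11.4% of all genes. Only 1 was lower without mutant 1 or 3 and 2 without any other single library, and with Y-linked CPM as a covariate 2 were higher and 1 lower. Neurod1, a NeuroD factor that follows Neurog2 in newborn neurons, had 41.5, 37.5, 34.4 and 35.2 CPM in controls and 21.3, 22.8, 24.2 and 26.1 CPM in libraries labelled mutant. The groups did not overlap and Neurod1 fell by 0.65 ± 0.08 on the log2 scale (adjusted p = 0.000327). Neurod1 exons overlap those of Cerkl on the same strand and of a predicted gene on the opposite strand. Neurod2, which acts later in maturing excitatory neurons, rose by 0.30 ± 0.06 (adjusted p = 0.00383), from 143 to 167 CPM in controls to 183 to 200 CPM. Rnd2, a small GTPase of migrating neurons, fell by 0.24 ± 0.07 (adjusted p = 0.0236), and this call was lost without control 3, without mutant 1, 2 or 3 (adjusted p up to 0.0761) and with the covariate (0.0767). Rnd2 overlaps Vat1 on the opposite strand. Neurod6 had 87.9 to 113 CPM in controls and 107 to 188 CPM in libraries labelled mutant, and did not pass the test (0.49 ± 0.18, adjusted p = 0.093).

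The SoxC factors Sox11 and Sox4 of young neurons rose. Sox11 had 183, 180, 213 and 183 CPM in controls and 302, 317, 266 and 282 CPM in libraries labelled mutant. Control 3 was the highest control and still lay below every library labelled mutant, and the log2 fold change was 0.62 ± 0.07 (adjusted p = 0.000222). Sox4 rose by 0.24 ± 0.06 (adjusted p = 0.0128) and overlaps a predicted gene on the opposite strand. With Y-linked CPM as a covariate the calls of Sox4 (adjusted p = 0.464) and Neurod2 (adjusted p = 0.136) ended.

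**Figure D1:**
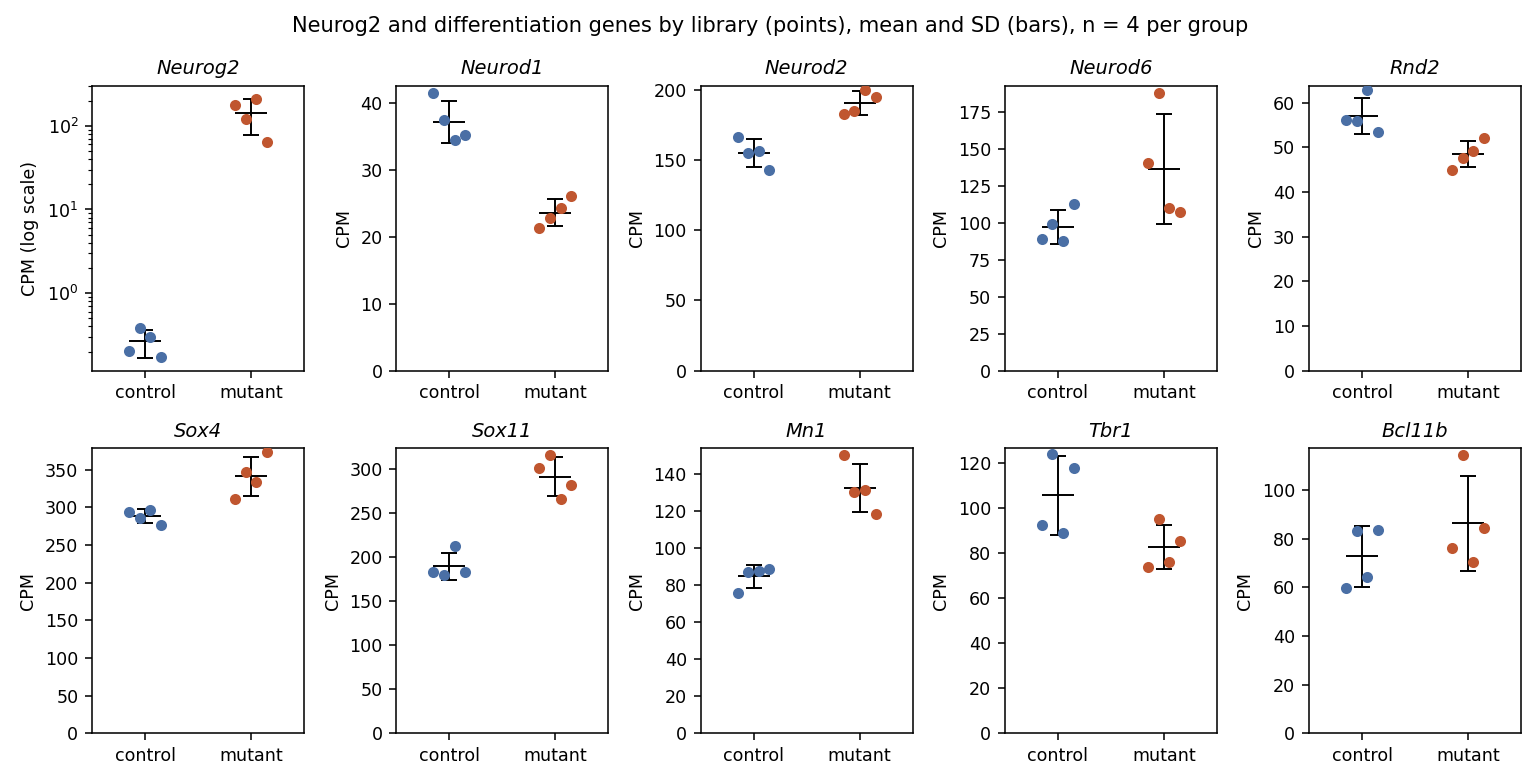
CPM of Neurog2 (log axis) and 9 differentiation and identity genes (linear axes from 0) in each library, with controls on the left and libraries labelled mutant on the right of each panel, points for libraries and bars for mean and SD (n = 4). Neurog2 stands at 63.4 CPM or more in libraries labelled mutant and at 0.381 CPM or less in controls, while Neurod1 is lower and Sox11 and Mn1 are higher in every library labelled mutant.

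Among upper-layer transcription factors 6 of 22 rose and 0 fell (27.3% and 0%, against 12% and 11.4% of all genes). Mn1, a transcriptional coregulator, had 75.7, 87.2, 87.9 and 88.6 CPM in controls and 150.2, 130.3, 132 and 118 CPM in libraries labelled mutant, without overlap (0.64 ± 0.08, adjusted p = 0.000255). Nfix, a nuclear factor I protein (0.46 ± 0.05), and Pou3f3, a POU-domain factor of upper-layer neurons (0.37 ± 0.06), also rose. The homeodomain factors Cux1 (95% interval of the log2 fold change -0.39 to 0.21) and Cux2 (-0.14 to 0.47) did not pass the test, and their groups overlapped. With Y-linked CPM as a covariate 3 of the 22 were called higher, and the call of Pou3f3 ended (adjusted p = 0.0867).

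Upper-layer markers went both ways, with 7 of 34 higher and 6 lower (20.6% and 17.6%, against 12% and 11.4% of all genes). The number higher was 4 without control 2, control 3 or mutant 1, and with the covariate 3 were higher and 4 lower. Inhba, the activin subunit beta A, had 33.4, 32.7, 38.4 and 25.8 CPM in controls and 68.9, 60.7, 74.1 and 68.8 CPM in libraries labelled mutant. Rasgrf2, an exchange factor of layer II/III neurons, rose by 0.51 ± 0.06 and Mdga1, a membrane protein of upper-layer neurons, by 0.53 ± 0.08. Calb1, a calcium buffer, had 17.7 to 25.3 CPM in controls and 8.83 to 12.3 CPM in libraries labelled mutant (-1.03 ± 0.12). Syt17, a synaptotagmin, fell (-0.99 ± 0.14), and so did Cartpt, a neuropeptide precursor (-1.64 ± 0.20).

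Of 29 deep-layer and subplate markers 1 rose and 5 fell (3.45% and 17.2%, against 12% and 11.4% of all genes). Their median log2 fold change was -0.34, against 0.00 over all genes. The number lower was 9 without control 3, 3 without mutant 1 or 2, 2 without control 2, control 4 or mutant 3, and 0 with Y-linked CPM as a covariate. Of 17 deep-layer transcription factors 1 rose and 2 fell (5.88% and 11.8%). For these factors the number lower was 3 without mutant 4 and 1 without control 1 or mutant 2. It was 0 without control 2, control 4, mutant 1 or mutant 3 or with the covariate. Of 53 other developmental factors 8 rose and 6 fell (15.1% and 11.3%; 3 lower without control 2, control 4, mutant 2 or mutant 3, and 5 higher and 2 lower with the covariate), with Vgll3 (1.33 ± 0.20) and Myc (0.50 ± 0.06) higher and Pknox2 lower (-0.34 ± 0.06). Nr4a2, a nuclear receptor of subplate neurons, had 20.4, 47.9, 35.6 and 41.4 CPM in controls and 3.83, 6.17, 7.05 and 17.5 CPM in libraries labelled mutant. Leaving out control 2, 3 or 4 or mutant 1, 2 or 3 ended its call (adjusted p up to 0.0758), as did the covariate (0.0816). Kcnab1, a potassium channel beta subunit, fell (-0.84 ± 0.18), but not with the covariate (adjusted p = 0.091). Tbr1, a layer VI factor (-0.36 ± 0.12, adjusted p = 0.0652), and Bcl11b, a layer V factor (0.25 ± 0.17, adjusted p = 0.343), did not pass the test.

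Among the large rises after Neurog2, Prss56 and Fst had low control levels, while Gipr stood at 14.1 CPM or more in controls. Prss56, a serine protease (chromosome 1), had 0.285, 0.458, 0.302 and 0.241 CPM in controls and 5.61, 5.22, 10.7 and 8.39 CPM in libraries labelled mutant (4.52 ± 0.30). Fst encodes follistatin, which binds and blocks activins, and rose from 0.692, 0.992, 2.11 and 0.86 CPM to 6.87, 7.46, 7.68 and 6.22 CPM (2.59 ± 0.28). Gipr, the receptor of the incretin GIP, had 15.2, 14.1, 14.7 and 14.2 CPM in controls and 67.7, 56.1, 54.2 and 53.5 CPM in libraries labelled mutant. Each of these 3 genes separated the groups completely, which the rule that named them required. Gipr varied least around its group means (log2 fold change 1.99 ± 0.08, adjusted p = 1.25e-07).

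Clec3b, which encodes tetranectin (2.29 ± 0.23), Nt5dc3 (2.28 ± 0.19), Sypl2, a synaptophysin-like protein (1.97 ± 0.14), and Rerg, a Ras-like GTPase (1.80 ± 0.20), rose. Aldh1a3, a retinoic acid synthesis enzyme, had 11.4 and 11.1 CPM in mutants 1 and 2 but 4.15 and 1.95 CPM in mutants 3 and 4, against 0.651 to 1.7 CPM in controls. Its call ended without control 1, 2 or 4 (adjusted p up to 0.0697) and with the covariate (0.053). Tdrd1 (2.12 ± 0.30) and Slc17a8, the vesicular glutamate transporter VGLUT3 (1.92 ± 0.34), rose, and both calls ended with Y-linked CPM as a covariate (adjusted p = 0.0566 and 0.0519). Zfp33b (3.76 ± 0.33), H2-T24 (3.07 ± 0.26) and Dnah7b (2.15 ± 0.32) have near copies among which reads may have been shared. Il11ra1 (1.73 ± 0.10) overlaps Ccl27a (1.42 ± 0.09) on the opposite strand, and no source used here states whether strand was used in counting.

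Large falls included a zinc-finger protein and a secreted Wnt ligand. Zfp605, a zinc-finger protein, had 73.1, 63.1, 67.6 and 63.1 CPM in controls and 16.4, 19.8, 17.8 and 19.1 CPM in libraries labelled mutant (-1.87 ± 0.07). Wnt9a fell from 19, 18.3, 15.9 and 20.1 CPM to 6.22, 6.51, 5.48 and 7.05 CPM (-1.54 ± 0.10). In both genes every control lay above every library labelled mutant, which the rule that named them required.

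Samd11 (-2.11 ± 0.19), Fbxo2, a ubiquitin ligase subunit for glycoproteins (-1.57 ± 0.12), Myh8 (-1.46 ± 0.14) and Gpr6, an orphan receptor (-1.41 ± 0.23), fell as well. Thy1, a surface protein of mature neurons, had 330, 273, 242 and 282 CPM in controls and 53.1, 121, 111 and 135 CPM in libraries labelled mutant, where mutant 1 was lowest (-1.42 ± 0.28). Cryab, a small heat shock protein, fell by 1.69 ± 0.27. Erdr1 (-3.47 ± 0.59) and Rsph3b (-1.77 ± 0.44) have close copies, and leaving out control 2 or 4 or mutant 2 or 3 ended the call of Rsph3b (adjusted p up to 0.0639). Cplx3, a complexin of subplate neurons (-1.80 ± 0.45), was no longer called without control 2 or 4 or mutant 1, 2 or 3 (adjusted p up to 0.0709). Hspa1b, an inducible chaperone (-1.54 ± 0.38), was no longer called without control 4 or mutant 3 (adjusted p up to 0.0572), and with the covariate neither Cplx3 (0.116) nor Hspa1b (0.303) was called. Samd11 overlaps Noc2l, Cryab overlaps Hspb2, and Fst and Zfp605 overlap predicted genes on the opposite strand.

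**Figure D2:**
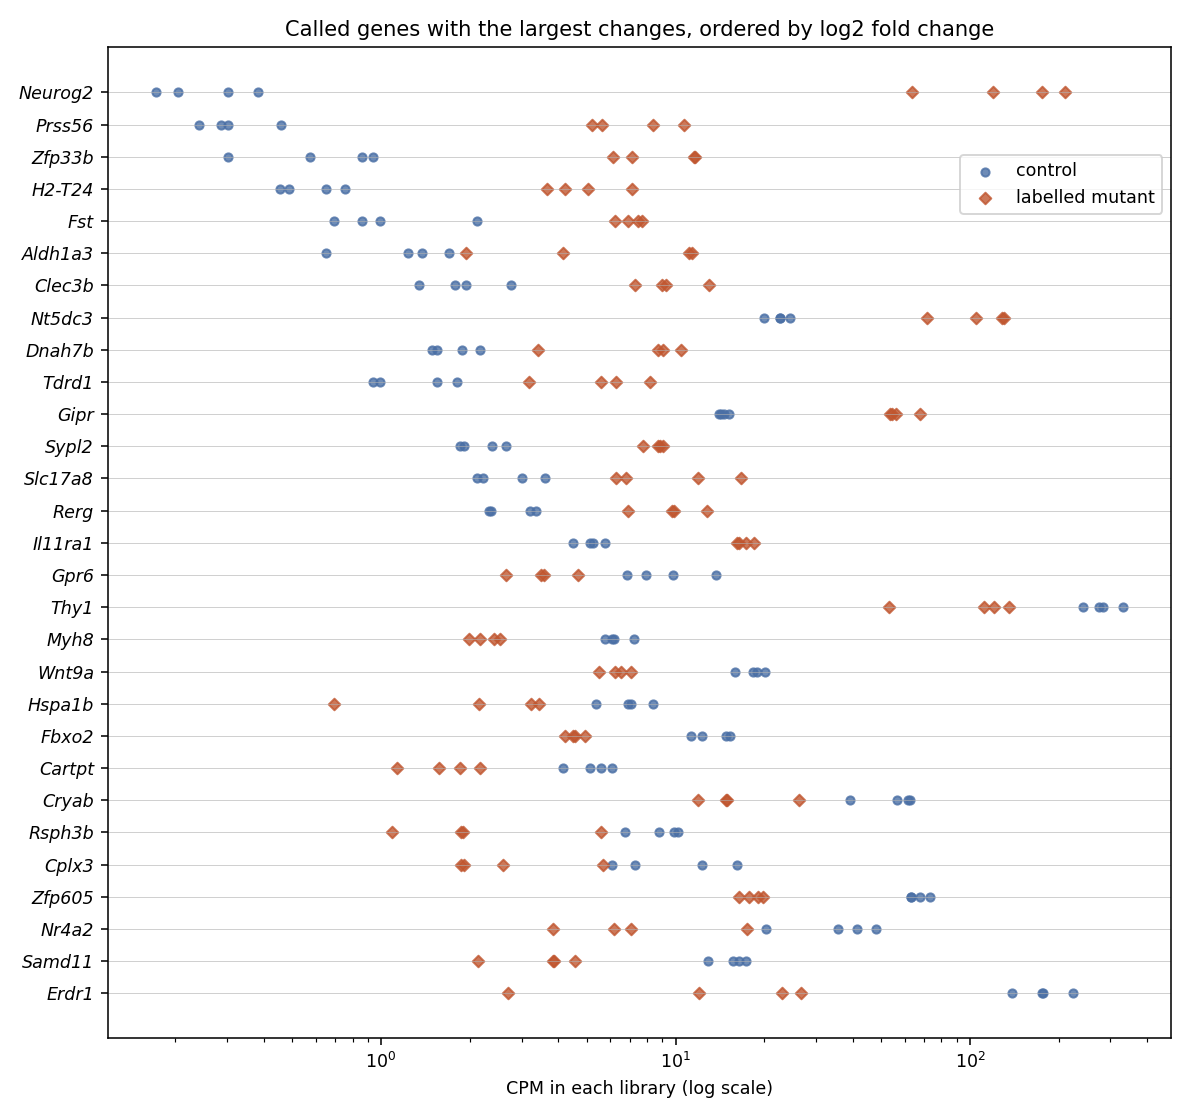
CPM in each library (log axis) of the called genes with the largest changes, ordered by log2 fold change, with circles for controls and diamonds for libraries labelled mutant. The rule that chose these genes required that groups do not overlap. Aldh1a3 ranges from 1.95 to 11.4 CPM in libraries labelled mutant.

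Further genes were named for their small p, among them some that changed by about 2-fold with little spread. Aacs, an acetoacetate-activating enzyme of lipid synthesis, had 186, 180, 169 and 180 CPM in controls and 87.9, 94, 90.4 and 83.3 CPM in libraries labelled mutant (-1.01 ± 0.05). Cx3cl1, the neuronal chemokine fractalkine (-0.84 ± 0.07), Scg5, a secretory granule chaperone (-0.85 ± 0.07), Tppp, a tubulin-binding protein (-0.55 ± 0.05), and Mt1, a metallothionein (-0.93 ± 0.08), fell. Ryr1, a calcium release channel (1.07 ± 0.08), Col15a1, a collagen (1.06 ± 0.09), Bend3 (0.96 ± 0.07), Ttc28 (0.87 ± 0.07) and P2rx2, an ATP-gated channel (1.01 ± 0.09), rose.

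Many genes of transmitter release were lower. Of 60 synaptic vesicle and release proteins 27 fell and 4 rose, which is 45% lower against 11.4% of all genes. Slc17a7, the vesicular glutamate transporter VGLUT1, had 507, 484, 378 and 538 CPM in controls and 258, 302, 278 and 271 CPM in libraries labelled mutant (-0.78 ± 0.10, adjusted p = 0.000562). Syn2, a synapsin that tethers vesicles, had 174 to 216 CPM in controls and 110 to 132 CPM in libraries labelled mutant (-0.67 ± 0.08). Control 3 was the lowest control for Slc17a7 and still lay above all 4 libraries labelled mutant. The median of the list in each library, as log2 over the control mean, was between -0.13 and 0.08 in controls and between -0.25 and -0.16 in libraries labelled mutant. The number lower was 21 to 27 when 1 library was left out and 11 with Y-linked CPM as a covariate. In the covariate fit 2.81% of all genes were called lower.

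Of 44 postsynaptic scaffolds and calcium/calmodulin-dependent kinases 19 fell and 1 rose (43.2% lower, against 11.4% of all genes). Camk2a, the alpha subunit of the kinase CaMKII of excitatory synapses, had 718, 665, 663 and 698 CPM in controls and 371, 344, 452 and 398 CPM in libraries labelled mutant (-0.81 ± 0.08). Camk2d, the delta subunit, had 66.5, 74.8, 69.4 and 83.3 CPM in controls and 33.9, 37.6, 35.1 and 35.7 CPM in libraries labelled mutant (-1.05 ± 0.07). Ddn, the postsynaptic protein dendrin, fell (-0.71 ± 0.07). Groups did not overlap for these 3 genes, as for 27% of all genes and for 3166 of the 3577 called genes. With Y-linked CPM as a covariate 7 of the 44 members were called lower, beside 2.81% of all genes.

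Among AMPA receptor subunits and auxiliary proteins 9 of 30 fell and 4 rose, 30% and 13.3% against 11.4% and 12% of all genes (5 and 2 with the covariate). Cacng3, a TARP that traffics AMPA receptors, had 41, 31.1, 34.1 and 34.6 CPM in controls and 17.7, 16.9, 17.3 and 17.5 CPM in libraries labelled mutant (-1.02 ± 0.08). Olfm1 (-0.50 ± 0.07) and Cpt1c (-0.44 ± 0.06) fell, while Gsg1l (0.50 ± 0.07) and Grip2, a scaffold of AMPA receptors (0.33 ± 0.05), rose. Of 23 NMDA, kainate and metabotropic receptors 1 rose and 1 fell, the latter being Grin1, the obligatory NMDA receptor subunit (-0.32 ± 0.06), and the number higher was 0 without control 2 or any library labelled mutant.

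Of 24 genes of GABA-A receptors and the inhibitory postsynapse 11 fell and 2 rose (45.8% lower, against 11.4% of all genes). With the covariate 6 members were called lower, beside 2.81% of all genes. Gabra4, the alpha-4 subunit of these receptors, had 51.3, 50.2, 43.2 and 48.3 CPM in controls and 29.8, 29.5, 35.8 and 33.9 CPM in libraries labelled mutant (-0.58 ± 0.08). It overlaps Gabrb1 on the opposite strand. Slc12a5 encodes KCC2, which extrudes chloride from mature neurons, and had 352, 377, 323 and 362 CPM in controls and 260, 265, 282 and 265 CPM in libraries labelled mutant (-0.40 ± 0.06). Slc12a2 encodes NKCC1, which loads chloride, and had 53 to 60.3 CPM in controls and 65.8 to 73.2 CPM in libraries labelled mutant (0.28 ± 0.06). The 2 chloride transporters thus moved in opposite directions, each without overlap of the groups. With Y-linked CPM as a covariate the call of Slc12a2 ended (adjusted p = 0.179) and that of Slc12a5 did not (adjusted p = 0.027).

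Of 56 synaptic adhesion proteins 11 fell and 4 rose (19.6% and 7.14%, against 11.4% and 12% of all genes). Lrrtm3, a leucine-rich postsynaptic protein that binds neurexins, had 30.8, 32.6, 28.8 and 32.2 CPM in controls and 15.1, 17.7, 16.7 and 18.2 CPM in libraries labelled mutant (-0.88 ± 0.07). Adgrl2, the latrophilin-2 receptor, moved the other way, from 151 to 188 CPM in controls to 239 to 315 CPM (0.77 ± 0.09). The number of adhesion genes called lower was 6 without mutant 1 or 3, 7 without control 2 or 4, and 4 with the covariate.

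**Figure D3:**
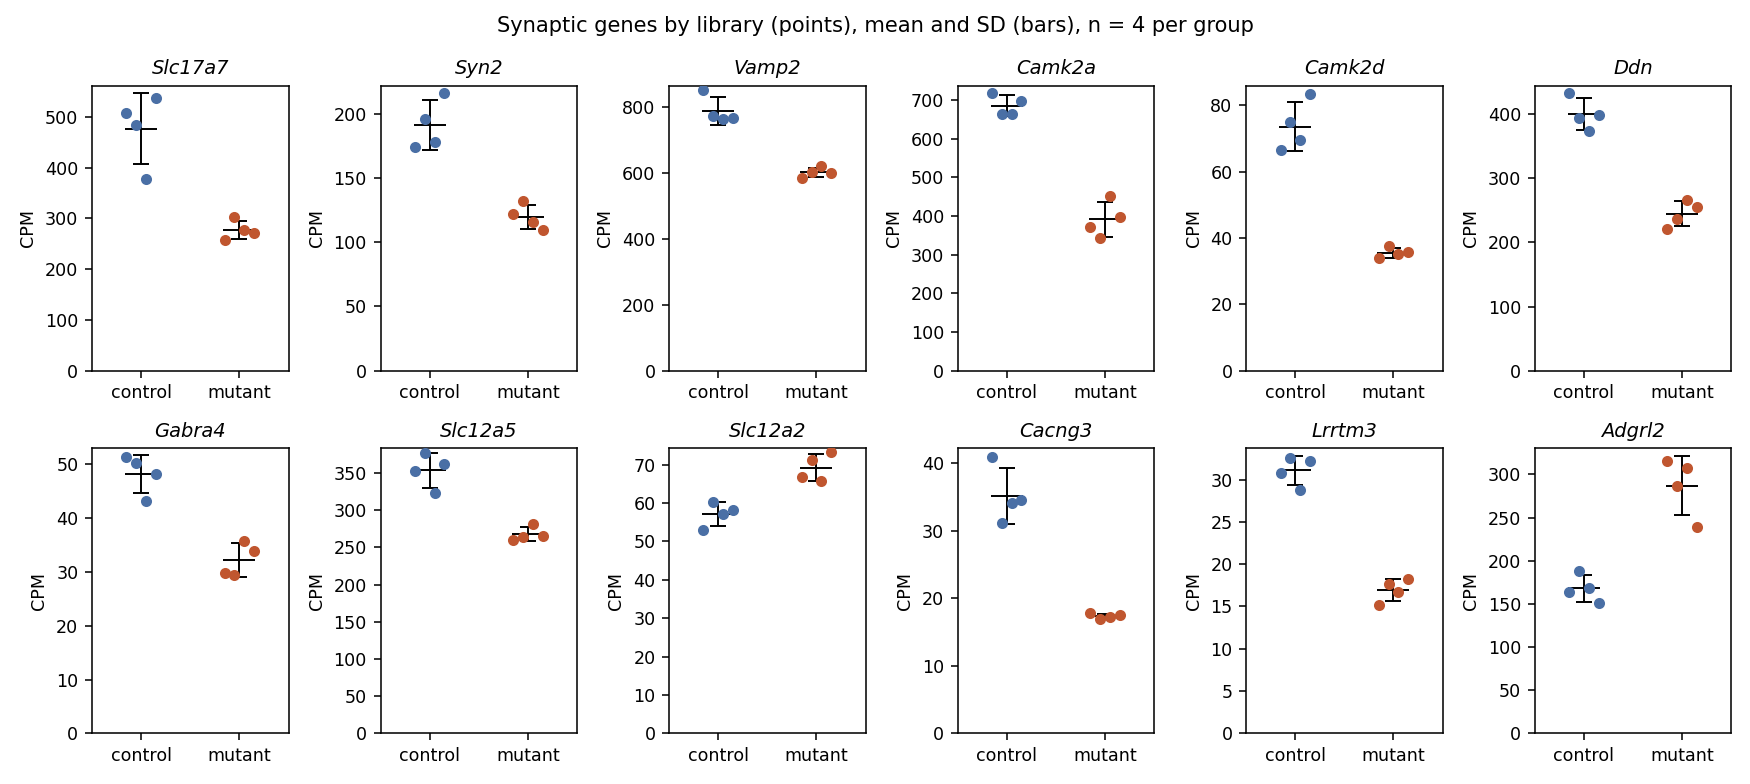
CPM of 12 synaptic genes in each library (linear axes from 0), with controls on the left and libraries labelled mutant on the right of each panel, points for libraries and bars for mean and SD (n = 4). Slc12a2 and Adgrl2 are higher and the other 10 are lower in every library labelled mutant.

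Of 65 potassium channel subunits 24 fell and 3 rose (36.9% lower, against 11.4% of all genes). Kcnk12, a two-pore-domain channel, had 19.7, 17.3, 15.9 and 18.1 CPM in controls and 8.74, 9.7, 9.25 and 7.52 CPM in libraries labelled mutant (-1.01 ± 0.10). Kcnab2, a beta subunit of Kv1 channels, fell (-0.67 ± 0.07), and so did Kcnj9, a G-protein-gated inward rectifier (-0.61 ± 0.08). The number lower was 16 without control 2 or mutant 1, and 7 with Y-linked CPM as a covariate. In the covariate fit 2.81% of all genes were called lower.

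Sodium, calcium, HCN and TRP channel subunits divided. Of 44 members 12 rose and 8 fell (27.3% and 18.2%, against 12% and 11.4% of all genes). The number lower was 12 without control 3 and 5 without control 1, control 2 or mutant 1. With the covariate 7 were higher and 3 lower. Cacna1b, the pore of N-type calcium channels, had 330, 323, 275 and 379 CPM in controls and 503, 550, 528 and 519 CPM in libraries labelled mutant (0.68 ± 0.08). Scn9a, a sodium channel pore, rose by 1.37 ± 0.16. Scn2b, an auxiliary sodium channel subunit, fell (-0.84 ± 0.07).

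**Figure D4:**
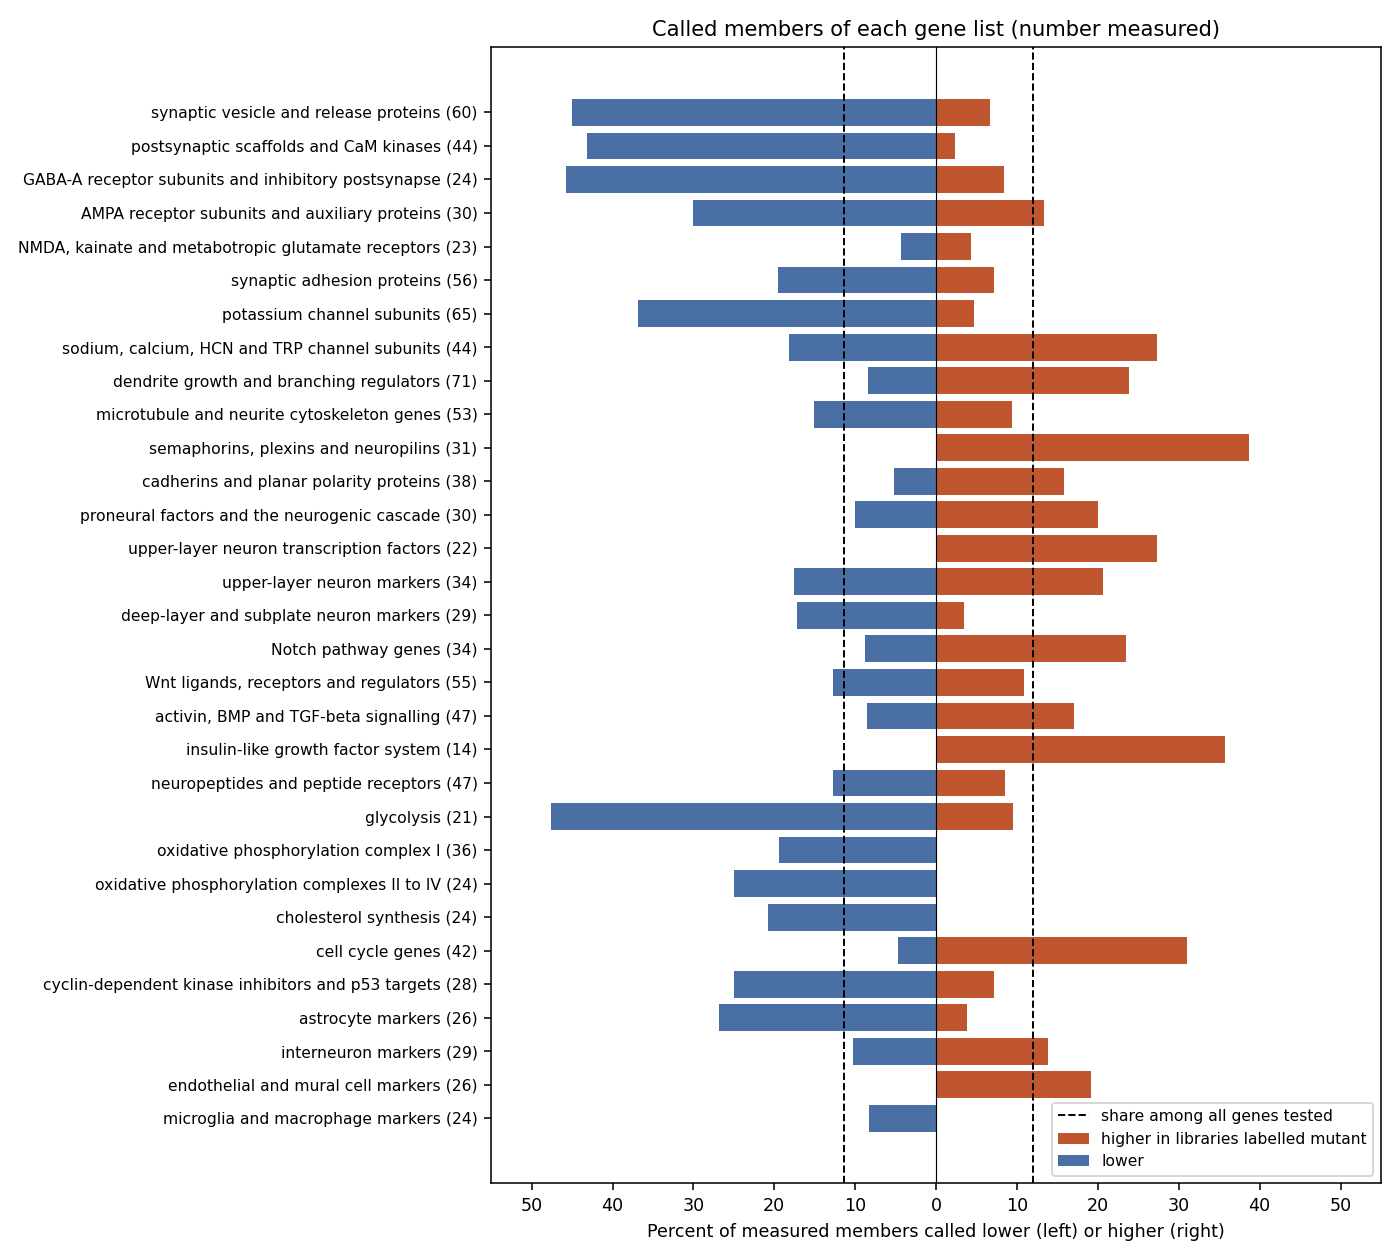
Percent of measured members called lower (left) or higher (right) in libraries labelled mutant for 31 gene lists, with the number measured in brackets and dashed lines at the shares among all genes tested (11.4% lower and 12% higher). Vesicle, postsynaptic, GABA-A and glycolysis lists reach 43.2% to 47.6% lower, and semaphorins and plexins 38.7% higher.

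Regulators of dendrite growth and branching were called higher in 17 of 71 and lower in 6 (23.9% and 8.45%, against 12% and 11.4% of all genes). Celsr3, an atypical cadherin, had 211, 271, 241 and 230 CPM in controls and 346, 338, 375 and 339 CPM in libraries labelled mutant (0.55 ± 0.07). Lrp8, a reelin receptor (0.41 ± 0.06), and Ntrk3, the neurotrophin-3 receptor (0.40 ± 0.06), rose, and Wnt7b, a ligand that promotes dendrite growth, fell (-0.56 ± 0.11). The number higher was 9 without mutant 2, 10 without control 4, 11 without mutant 1 or 3, and 6 with Y-linked CPM as a covariate. Those lower numbered 2 without mutant 1, 3 without control 4, mutant 2 or mutant 3, and 1 with the covariate. Of 53 cytoskeleton genes 5 rose and 8 fell (1 to 3 higher without any one library other than control 1 or 2, 5 lower without mutant 1 or 3, and 0 higher and 2 lower with the covariate), with Tuba4a, an alpha-tubulin of mature neurons, at -0.91 ± 0.10 and Dcx, a microtubule protein of migrating neurons, at 0.26 ± 0.07. The call of Dcx ended with Y-linked CPM as a covariate (adjusted p = 0.3). Dcx is itself among the X and Y genes, so the fit that left those out did not test it.

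Of 31 semaphorins, plexins and neuropilins, a family of axon guidance cues and receptors, 12 rose and 0 fell (38.7% higher). Plxna3, a semaphorin receptor, had 190, 205, 193 and 172 CPM in controls and 264, 279, 285 and 244 CPM in libraries labelled mutant (0.50 ± 0.07). Plxna3, like Dcx, was not tested in the fit without X and Y genes. The transmembrane semaphorins Sema4c (0.42 ± 0.06) and Sema6d (0.36 ± 0.07) also rose, but both calls ended with Y-linked CPM as a covariate (adjusted p = 0.055 and 0.12), which left 2 of the 31 called. Of 38 cadherins and planar polarity proteins 6 rose and 2 fell (15.8% and 5.26%, against 12% and 11.4% of all genes). Among them Fat4 (0.56 ± 0.07) and its ligand Dchs1 (0.46 ± 0.06) were higher and Prickle2 was lower (-0.42 ± 0.08). The number of these called lower was 4 without control 3 and 1 without control 2, mutant 1, mutant 3 or mutant 4, and with the covariate 4 were higher and 1 lower. Of 22 Eph receptors and ephrins 1 rose and 1 fell. Of 31 genes of the Slit, Robo, netrin and DCC families 3 rose and 2 fell, among them the netrin receptor Dcc (0.40 ± 0.09) and the repulsive cue Draxin (-0.60 ± 0.11). Without control 3 there were 4 lower, 3 without mutant 4 and 1 without any other single library, and with the covariate 0 were higher, so that the call of Dcc ended (adjusted p = 0.138), and 2 lower.

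Genes of secreted signals were called in both directions. Of 47 genes of activin, BMP and TGF-beta signalling 8 rose and 4 fell (17% and 8.51%). The number lower was 1 without control 4, mutant 1 or mutant 3, and 2 without control 2 or mutant 4. With the covariate 5 were higher and 1 lower. The risers included the activin subunit Inhba, its antagonist Fst and the receptor Tgfbr1 (0.60 ± 0.06). Among 55 genes for Wnt ligands, their receptors and regulators, 6 rose and 7 fell (10.9% and 12.7%, near the 12% and 11.4% of all genes), with Rspo3, an R-spondin that enhances Wnt signals (-0.86 ± 0.15), and Sostdc1, a Wnt and BMP antagonist (-0.82 ± 0.15), among the fallers. The number of Wnt genes called higher was 1 without control 4, 2 without control 2 or mutant 1 or 3, 3 without mutant 2 and 0 with Y-linked CPM as a covariate, which left 3 lower and ended the call of Rspo3 (adjusted p = 0.109). Of 20 targets of Wnt signalling 3 rose (5 without control 3) and 1 fell (0 without any one library other than control 4). Of 34 Notch pathway genes 8 rose (5 without mutant 1) and 3 fell (3 and 0 with the covariate), with the coactivator Maml2 at 0.56 ± 0.09 and the receptor Notch4 at 0.52 ± 0.11.

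Of 14 genes of the insulin-like growth factor system 5 rose and 0 fell (35.7% higher, against 12% of all genes). They were led by Igfbpl1, an IGF-binding protein of newborn neurons (1.28 ± 0.21). The number higher was 3 without control 1 or mutant 1, 2 or 3 and 0 with Y-linked CPM as a covariate. Of 17 retinoic acid genes 3 rose and 0 fell, namely Aldh1a3, the receptor Rxrg (1.03 ± 0.16) and the reductase Dhrs3 (0.65 ± 0.16), and with the covariate Rxrg alone was called, Dhrs3 having an adjusted p of 0.198. Of 47 neuropeptides and peptide receptors 4 rose and 6 fell (8.51% and 12.8%, against 12% and 11.4% of all genes). The number lower was 11 without control 3, and with the covariate 2 were higher and 4 lower. Gipr and Hcrtr2, an orexin receptor (1.08 ± 0.23), rose, and the precursors Pdyn, of dynorphin (-1.13 ± 0.17), and Tac2, of neurokinin B (-1.02 ± 0.17), fell, Pdyn not being called with the covariate (adjusted p = 0.0708).

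Of 21 glycolysis genes 10 fell and 2 rose (47.6% lower, against 11.4% of all genes). Aldoa, an aldolase, had 609, 520, 490 and 541 CPM in controls and 374, 383, 388 and 379 CPM in libraries labelled mutant (-0.50 ± 0.06). Slc2a3, the neuronal glucose transporter GLUT3, fell (-0.48 ± 0.07), while Pfkp, a phosphofructokinase, rose by 0.35 ± 0.06. The number lower was 9 to 11 when 1 library was left out and 3 with Y-linked CPM as a covariate. In the covariate fit 2.81% of all genes were called lower.

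Most oxidative phosphorylation genes did not pass the test. In complex I 7 of 36 fell and 0 rose (19.4% lower), in complexes II to IV 6 of 24 and 0 (25%), and in ATP synthase 4 of 15 and 0 (26.7%). Among all genes 11.4% were called lower. Sdhd, a succinate dehydrogenase subunit, had 85.5, 77.2, 76.7 and 77.2 CPM in controls and 58.7, 60.3, 57.1 and 66.6 CPM in libraries labelled mutant (-0.38 ± 0.06). The median of complex I was 0.19 in control 1 and -0.11 to -0.03 in the other controls, against -0.18 to -0.11 in libraries labelled mutant, so controls 2 to 4 lay close to the latter. With 1 library left out the numbers lower ranged from 2 to 8 for complex I (2 without mutant 1), from 2 to 7 for complexes II to IV (2 without mutant 1 or 4) and from 1 to 6 for ATP synthase (1 without mutant 1). With Y-linked CPM as a covariate the numbers were 0, 1 and 0. Of 24 cholesterol synthesis genes 5 fell and 0 rose (3 lower without mutant 1 or 4, and 2 with the covariate), with the sterol carrier Stard4 at -0.42 ± 0.05 and the sterol sensor Insig1 at -0.32 ± 0.06. Of 26 genes of fatty acid and phospholipid synthesis 2 rose and 2 fell, and the triglyceride enzymes Dgat1 (0.40 ± 0.08) and Dgat2 (-0.55 ± 0.08) moved in opposite directions.

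Among 42 genes of the cell cycle 13 rose and 2 fell (31% higher, against 12% of all genes). Top2a, a topoisomerase of dividing cells, had 22, 22.7, 30.5 and 23.5 CPM in controls and 41, 33.6, 33 and 41.7 CPM in libraries labelled mutant (0.60 ± 0.12). Cenpf, a kinetochore protein, rose by 0.52 ± 0.10. Control 3 was the highest control for Top2a. The number higher was 18 without control 3, 8 without control 1 or mutant 4, 5 or 6 without control 2, control 4, mutant 1 or mutant 3, and 4 with Y-linked CPM as a covariate. Of 15 radial glia markers 4 were higher (7 without control 3, and 2 with the covariate) and 0 lower, including Tnc, an extracellular matrix protein (0.93 ± 0.17), and Nes, an intermediate filament of progenitors (0.55 ± 0.11).

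Of 28 cyclin-dependent kinase inhibitors and p53 targets 7 fell and 2 rose, 25% and 7.14% against 11.4% and 12% of all genes (3 and 0 with the covariate). Cdkn1a, the inhibitor p21, had 34, 40.6, 33 and 39.2 CPM in controls and 16.3, 19.1, 12.9 and 19.4 CPM in libraries labelled mutant (-1.12 ± 0.12). Pmaip1, a pro-apoptotic p53 target, fell (-1.05 ± 0.16). Of 34 chaperone and unfolded protein response genes 8 fell (5 without control 4, 4 without mutant 3 and 2 with the covariate) and 1 rose. Of 40 activity-regulated genes 4 rose and 6 fell (10% and 15%), with 2 lower without control 2 or 4 and 3 without mutant 1. Nr4a1 (0.51 ± 0.09) was higher and Egr3 (-0.51 ± 0.08) lower, neither called with the covariate (adjusted p = 0.0971 and 0.0746). Of 31 genes of MHC class I, antigen presentation and interferon response 3 rose and 4 fell (9.68% and 12.9%). The number higher was 1 without control 4 or mutant 3, and the number lower was 2 without mutant 1 or 2. With the covariate 1 was higher and 0 lower, and the calls of the fallen H2-K1 (-0.77 ± 0.18) and H2-D1 (-0.78 ± 0.18), which are similar in sequence, ended (adjusted p = 0.297 and 0.254).

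Most markers of other cell types did not pass the test. Of 26 astrocyte markers 7 fell and 1 rose (26.9% and 3.85%, against 11.4% and 12% of all genes). The number higher was 5 without control 3, 2 without mutant 2 or 4, and 0 without control 1, control 4, mutant 1 or mutant 3, and with the covariate 2 were lower and 0 higher. Slc1a2, the glutamate transporter GLT-1, had 675, 856, 831 and 688 CPM in controls and 444, 436, 549 and 553 CPM in libraries labelled mutant (-0.62 ± 0.11), and Clu, clusterin, fell (-0.48 ± 0.08). The summed level of the list overlapped, at 4466 to 5747 CPM in controls and 4285 to 5120 CPM in libraries labelled mutant. Of 26 endothelial and mural markers 5 rose and 0 fell, and 25 had a log2 fold change above 0 (median 0.27, against 0.00 over all genes), with the pericyte gene Abcc9 at 0.70 ± 0.12. Their summed level was 657 to 931 CPM in controls and 765 to 1050 CPM in libraries labelled mutant, and the number higher was 10 without control 3, 3 without control 2, control 4, mutant 1 or mutant 3, and 2 with Y-linked CPM as a covariate.

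Of 24 microglia markers 2 fell, the lysosomal protease Ctss (-0.40 ± 0.13) and Aif1, a calcium-binding protein, and all 24 had a log2 fold change below 0 (median -0.37). Aif1 had 11.6, 8.85, 9.67 and 8.87 CPM in controls and 6.79, 4.57, 6.14 and 1.99 CPM in libraries labelled mutant. The number lower was 5 without mutant 1, 1 without mutant 4, and 0 without control 2, control 3, mutant 2 or mutant 3. With Y-linked CPM as a covariate neither was called (adjusted p = 0.546 for Aif1 and 0.556 for Ctss). The summed level of these markers was 241 to 355 CPM in controls and 193 to 280 CPM in libraries labelled mutant. Of 29 interneuron markers 4 rose (2 without mutant 4) and 3 fell (6 without control 3). These shares, 13.8% and 10.3%, lay near the 12% and 11.4% of all genes. Slc32a1, the vesicular GABA transporter, (-0.53 ± 0.10), and Gad1, a GABA synthesis enzyme (-0.33 ± 0.09), fell, while Npas1 (0.38 ± 0.07) and Cnr1, a cannabinoid receptor (0.42 ± 0.08), rose. With the covariate 2 were higher and 0 lower, the calls of Slc32a1 (adjusted p = 0.072) and Gad1 (0.169) having ended. Of 20 oligodendrocyte lineage markers 3 rose and 0 fell, but 15 had a log2 fold change below 0 (median -0.26), and without mutant 4 the number lower was 6. Of 9 Cajal-Retzius markers 0 were called, and of 3 measured red blood cell markers 1 rose and 1 fell. Meningeal markers varied widely between libraries, with a summed level of 176 to 836 CPM in controls and 260 to 985 CPM in libraries labelled mutant, and 1 of 18 was called. The part of these cell types in the neuronal results was not tested.

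**Figure D5:**
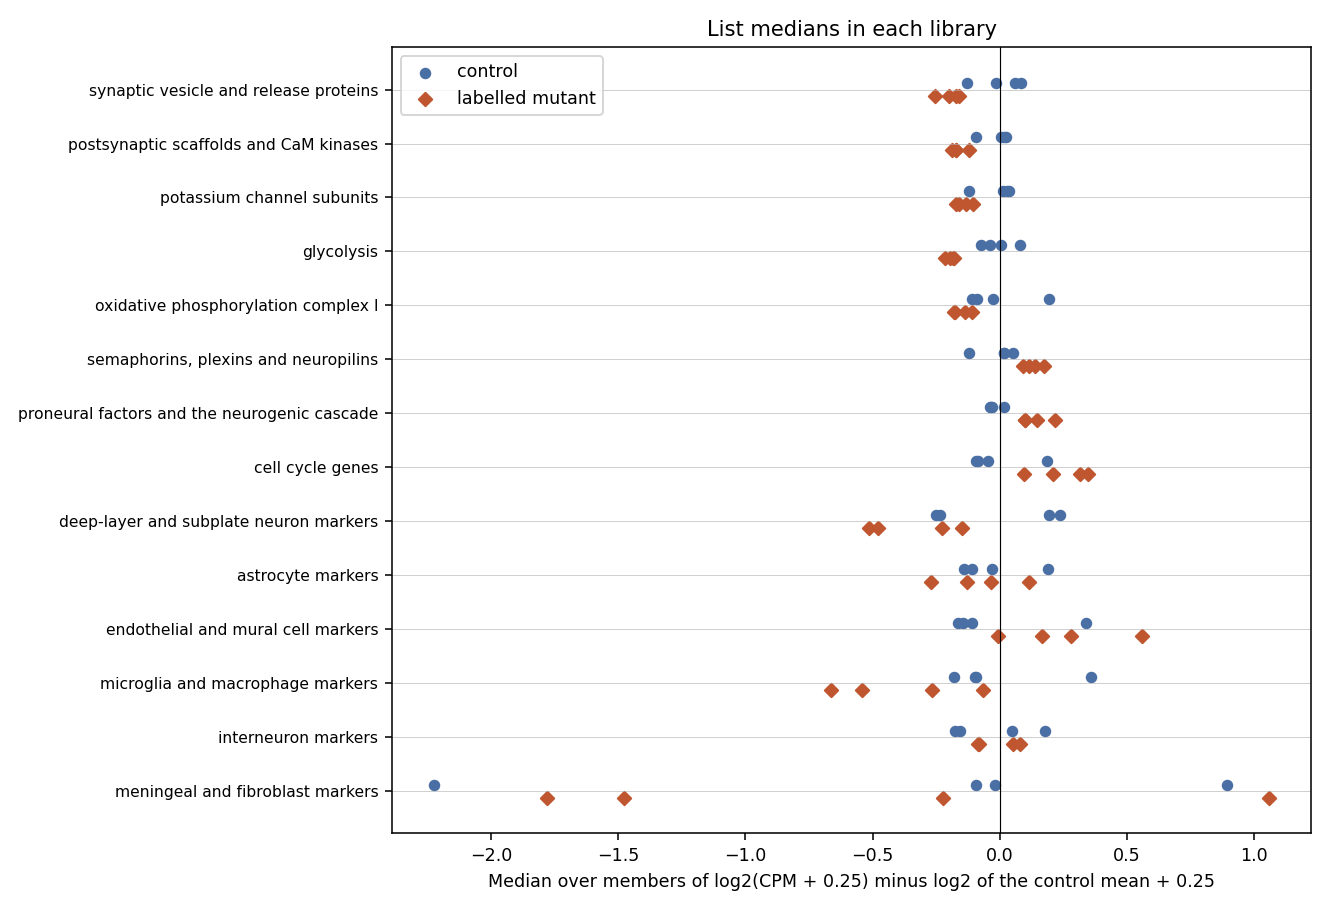
Median over the members of each list of log2(CPM + 0.25) minus log2 of the control mean + 0.25, for each library, with circles for controls and diamonds for libraries labelled mutant. Vesicle, postsynaptic and glycolysis medians are separated between groups, whereas meningeal markers range from -2.23 to 1.06 across both.

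The progenitor result was set beside the postmitotic experiment, in which EGFP was electroporated into Lhx2lox/lox cortices (n = 3) or NexCre/+; Lhx2lox/lox cortices (n = 3). NexCre acts in young excitatory neurons. Over all genes the log2 fold change differed between the experiments for 1086 of 15643 genes (6.94%) in a test of the interaction, more positive in the progenitor experiment for 3.84% and more negative for 3.1%. Fst, one of the genes looked at for its large progenitor change, which is itself part of the difference, was at 2.60 in that shared fit for the progenitor libraries and at 0.07 for the postmitotic ones, a difference of 2.52 ± 0.33 (adjusted p = 0.000405, edgeR). Aldh1a3 (0.84 ± 0.89) and Nr4a2 (-0.47 ± 0.71) did not pass this test, with adjusted p = 0.627 and 0.75 in edgeR. The number of differing genes was 598 without postmitotic control 1, 714 without postmitotic control 2, 637 without postmitotic mutant 1, 698 without progenitor control 4 and 718 without progenitor mutant 3.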

How the data were processed

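The authors deposited a table of read counts per gene symbol for the progenitor experiment and another for the postmitotic one. The submitters' processing notes name HISAT2, featureCounts, DESeq2 and mm10; no source used here gives versions, annotation or strand setting. The authors' deposited DESeq2 table (mean signal, log2 fold changes, p-values) served only as a comparison: for 158 named genes its log2 fold changes differed from those here by at most 0.015. Columns of other samples numbered 0.

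Counts were tested with edgeR 4.0.16 (filterByExpr, TMM, robust quasi-likelihood fit, Benjamini-Hochberg, adjusted p under 0.05) in R 4.3.3; the procedure was tested on simulated data. CPM use TMM-scaled totals. The difference from the postmitotic experiment was the interaction in 1 fit of all 14 libraries. Alternatives used DESeq2 1.42.0 and limma 3.58.1 among others. Named genes were Lhx2, up to 15 called genes per direction by size and 15 by p (groups not overlapping, at least 5 CPM in the higher group, no predicted-gene name), up to 3 members per direction of each of 47 lists, and a fixed set of differentiation genes; some genes this rule selects are not reported here. Members and lists were chosen with earlier results of these data known. Positions are GENCODE M21 (GRCm38/mm10). Promoters are RefSeq (GRCm38.p6), found for 12007 of 15295 tested genes. Replicate numbers did not pair the libraries.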

Additional observations from a re-analysis of the deposited data

Results flagged for a closer look

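Library values of the named genes were looked at for 1 library standing apart in a group of 4, by Dixon's ratio of the gap to the range against its 95% critical value. This marked 11 of 326 groups, and chance marks about 1 in 20. Control 3 stood apart for Sox11 (ratio 0.892, 213 CPM against 180 to 183), Tnc (0.872, 217 against 131 to 142 CPM) and Olfm1 (0.918, 341 against 405 to 411 CPM). Control 1 stood apart for Mn1 (0.891, 75.7 against 87.2 to 88.6 CPM), Vamp2 (0.913, 852 against 765 to 772 CPM), Sema4c (0.866, 41.5 against 46.3 to 47 CPM) and Sdhd (0.941, 85.5 against 76.7 to 77.2 CPM). Control 4 did so for Hcrtr2 (0.859, 0.997 against 1.43 to 1.51 CPM). Among libraries labelled mutant, mutant 1 stood apart for Kcnab2 (0.841, 42.6 against 48.5 to 49.6 CPM), mutant 2 for Rxrg (0.965, 3.28 against 3.96 to 3.98 CPM) and mutant 4 for H2-D1 (0.883, 10.1 against 15.4 to 16.1 CPM).

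The log2 fold change was set against that of the postmitotic experiment for 9 genes picked for their large progenitor change (interaction in edgeR, Benjamini-Hochberg). That change is part of the difference tested, so the number that passed, 7, is not read against the 6.94% of all genes. Progenitor minus postmitotic, the difference was 8.04 ± 1.48 for Neurog2 (adjusted p = 0.0113), 4.77 ± 0.77 for Prss56 (adjusted p = 0.00186), 3.12 ± 0.49 for H2-T24 (adjusted p = 0.00192) and 2.52 ± 0.33 for Fst (adjusted p = 0.000405). It was -2.70 ± 0.40 for Samd11 (adjusted p = 0.0014), -2.08 ± 0.44 for Zfp605 (adjusted p = 0.0189) and -2.95 ± 0.66 for Cplx3 (adjusted p = 0.021). The highest adjusted p over all alternatives was 0.0622 for Neurog2, whose call ended with voom and when postmitotic control 2 was left out. For Zfp605 it was 0.0588, and the call ended with the replicate block and when postmitotic control 1 was left out. For Cplx3 it was 0.053, and the call ended when postmitotic control 1, control 3 or mutant 1 was left out. Low counts limit the postmitotic side for 2 of these genes. Neurog2 had 12, 17 and 9 counts in postmitotic controls and 30, 25 and 24 in postmitotic mutants, and Prss56 had 1, 6 and 8 against 5, 3 and 5.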

How the results depend on the processing

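The number of genes called was 3577, and 393 with controls against mutant 1 alone (fewer libraries), 948 with Y-linked CPM as a covariate, 1567 at an adjusted p under 0.01 and 3073 with the replicate number as a block; leaving out 1 library gave 2383 (without mutant 3) to 3712. The number called and changed by more than 2-fold was 299, 173 with mutant 1 alone and 268 with the replicate block; leaving out 1 library gave 241 to 344. The number whose log2 fold change differed from the postmitotic experiment was 1086, 659 with the replicate block and 598 (without postmitotic control 1) to 1481 with 1 library left out. The causes were not tested. Lhx2 was not called under any alternative; its log2 fold change was 0.02, and -0.02 to 0.08 with 1 library left out. Of 157 named called genes, 157 kept their sign under each of the 20 alternatives that tested them. Dcx and Plxna3 were tested in 19. The alternatives reuse the same libraries, and all 3577 called genes kept their sign with mutant 1 alone, so a kept sign says little. Of the named called genes 113 kept their call under all but mutant 1 alone. The covariate, whose label effect rests mainly on mutant 1, ended 41 calls and the block 4. Same-numbered libraries had correlations of deviations of -0.44, 0.01, -0.18 and 0.09, so the block was no pairing. Depth limits Neurog2, which had 5 to 10 counts in controls; thinning all libraries to the lowest total called 3506 genes.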

Other observations

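Of 9 long noncoding RNAs, named after their values were seen, 3 were called. Malat1, a nuclear RNA, had 477, 510, 517 and 486 CPM in controls and 970, 818, 923 and 1046 CPM in libraries labelled mutant, without overlap (0.92 ± 0.07). Miat (0.49 ± 0.09) and Meg3 (0.39 ± 0.07) were called higher, Miat not with Y-linked CPM as a covariate (adjusted p = 0.0732), and Neat1 (0.10 ± 0.26), Rian (0.07 ± 0.06) and Snhg11 (-0.20 ± 0.10) were not called. Among 209 genes annotated as antisense, 12.4% were called higher and 1.91% lower, and among 14222 protein-coding genes 11.9% and 11.9%.

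Calls also varied with exon length. In the fifth of genes with the shortest summed exons 6.55% were called higher and 11.2% lower (median log2 fold change -0.03). In the fifth with the longest, 19.8% were called higher and 7.79% lower (median 0.07). The part of length in the gene lists was not tested.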
